A study of Mus musculus with 15 samples.

Results

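Fibroblasts sorted from mouse lungs that carried macrometastases of MDA-LM2 breast cancer cells were compared with fibroblasts sorted from healthy lungs, gene by gene, on 6 of the 15 arrays of the series (3 MDA-LM2 macro arrays and 3 healthy arrays). The mice were female NSG animals (NOD.Cg-Prkdcscid Il2rgtm1Wjl/SzJ, a strain without mature T, B or NK cells) of 6 to 8 weeks of age at the start. MDA-LM2 is a highly metastatic derivative of the human breast cancer line MDA-MB-231 (MDA), and the human cells, which carried a thymidine kinase, GFP and luciferase reporter, were injected into the tail vein, so that no primary tumor was present. The MDA-LM2 macro lungs were taken at week 3 from mice with similar luciferase signal, the healthy lungs came from age-matched mice without tumor cells, and 3 further arrays held fibroblasts from MDA macro lungs of the same week. Each array held the RNA of 1 replicate from 1 to 3 mice, amplified from a small amount of total RNA. The sort kept cells with CD140a or CD140b (the PDGF receptors PDGFRA and PDGFRB, read in a common channel) and without CD45, CD11b, CD31 and EPCAM, so that pericytes and other PDGF receptor-positive mesenchyme could enter the gate.

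Lung fibroblasts produce the collagens and elastic fibers of the alveolar wall and of the sheath around vessels and airways. After injury or next to a tumor they can divide, take on contractile proteins, deposit a changed matrix and secrete chemokines and cytokines. Interferons induce antiviral genes through response elements in their promoters, and the NF-kB pathway induces chemokines, cytokines and its own inhibitors. CXCL9 and CXCL10 are chemokines that bind the receptor CXCR3.

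Values are log2 intensities of the probe set that stood for each gene, differences are log2 fold changes of the MDA-LM2 macro mean minus the healthy mean (± SE, n = 3 arrays per group), and the word called is kept for adjusted p-values under 0.05, from limma with Benjamini-Hochberg correction over 18194 genes. In total 4115 genes were called, 22.6% of those tested, with 2482 higher (13.6%) and 1633 lower (8.98%) in MDA-LM2 macro. The change reached 2-fold for 760 genes that rose and 589 that fell, 4-fold for 170 and 90, and 8-fold for 42 and 8. The median change over all genes was 0.08. Among the called genes 60.3% were higher, and this share was 51.6% after quantile normalization and 51.7% after median centring of the arrays, while the number of genes called stayed at 3794 and 3908. Values of the 3 arrays of each group did not overlap for 43.4% of all genes tested. MDA-LM2 macro replicate 2 carried the most weight in the count, since 2433 genes were called without it, and 2724 without MDA-LM2 macro replicate 1.

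**Figure D1:**
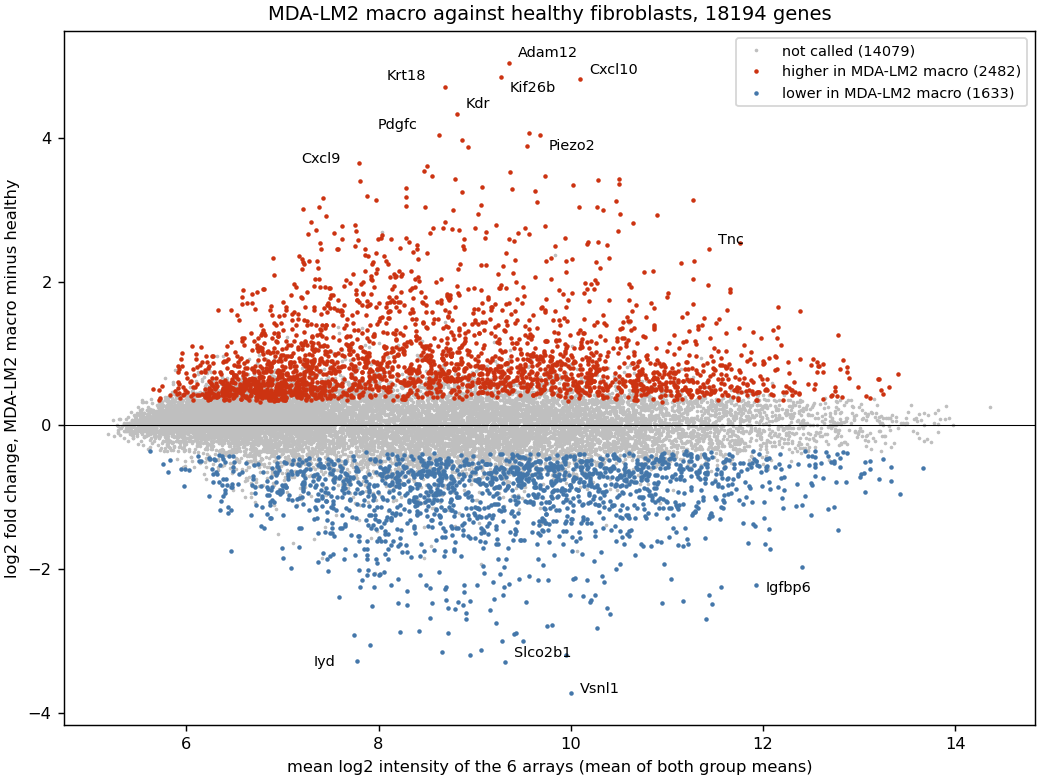
Log2 fold change of MDA-LM2 macro minus healthy (vertical axis) against the mean log2 intensity of the 6 arrays (horizontal axis), with each point a gene, red for the 2482 genes called higher, blue for the 1633 called lower and grey for the others. Changes ran from 5.04 for Adam12 to -3.72 for Vsnl1, and Cxcl10, Kif26b and Krt18 stood next to Adam12.

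Of 5 array measures 3 did not overlap between the groups. Array medians were 7.46 to 7.49 in MDA-LM2 macro and 7.50 to 7.51 in healthy. The 3′ minus 5′ difference of the Gapdh control probe sets, which grows with RNA breakdown or incomplete amplification, was 1.01 to 1.05 in MDA-LM2 macro and 1.16 to 1.70 in healthy, and hybridization spikes were 12.79 to 12.87 and 12.95 to 12.99. Each of these 3 gave an exact permutation p of 0.1 (two-sided, the smallest that 3 against 3 arrays allow). The 3′ minus 5′ difference of Actb (-0.118 to -0.104 in MDA-LM2 macro, -0.205 to -0.114 in healthy) and the poly-A spikes (5.94 to 6.00 and 5.83 to 5.95) overlapped. Their part in the results was not tested. Fibrillar collagen genes, typical of fibroblasts, were bright in both groups: Col1a1 averaged 13.85 in healthy and 13.94 in MDA-LM2 macro, Col1a2 13.80 and 13.89, and Col3a1 13.67 and 13.68, none of them called.

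Of the genes of the sort itself, Pdgfra read 12.44, 12.49 and 12.31 in healthy and 11.96, 11.70 and 11.87 in MDA-LM2 macro, a fall of 1.49-fold (-0.57 ± 0.12, adjusted p = 0.0149), and the adjusted p was 0.052 without MDA-LM2 macro replicate 2. Its other probe sets fell further, by 0.98 and 1.00 on the log2 scale. Pdgfrb read 11.96, 11.72 and 11.88 in healthy and 12.23, 12.11 and 12.29 in MDA-LM2 macro, and its difference did not pass the test (0.36 ± 0.11, adjusted p = 0.0647).

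The highest change was that of Adam12, a membrane-bound metalloproteinase-disintegrin of activated mesenchyme. Its healthy arrays read 7.11, 6.37 and 7.03 and its MDA-LM2 macro arrays 12.02, 11.92 and 11.70, a 32.9-fold rise (5.04 ± 0.21, adjusted p = 8.41e-05). Kif26b, a kinesin family member of noncanonical Wnt signaling, rose from 6.79, 6.54 and 7.22 to 11.64, 11.75 and 11.67 (28.6-fold, 4.84 ± 0.18, adjusted p = 5.76e-05). The mechanosensitive cation channel gene Piezo2 rose 16.3-fold, from 7.79, 7.50 and 7.70 to 11.71, 11.60 and 11.77. The platelet-derived growth factor ligand gene Pdgfc rose 16.5-fold and the cell cycle inhibitor gene Cdkn2b 14.7-fold. Receptors and surface proteins known from other lineages stood among the 20 highest as well. Kdr, which encodes the VEGF receptor 2, read 6.52, 6.68 and 6.74 in healthy and 11.09, 10.98 and 10.87 in MDA-LM2 macro (20.2-fold, adjusted p = 3.65e-05, the lowest of all genes), and Flt4, the VEGF receptor 3, rose 12.2-fold. The keratin genes Krt18 and Krt8 rose 26.0-fold and 11.6-fold, Krt18 from 6.43, 6.03 and 6.56 to 10.75, 11.90 and 10.47, so that its MDA-LM2 macro arrays lay over 1 log2 unit apart. The remaining genes of the 20 were Cxcl10, Chl1, Gpm6a, Slpi, Cxcl9, Marcksl1, Irf7, Hdc, Ccl2, Cdca8 and Rgs16, with changes of 3.41 to 4.81. For 18 of the 20 the healthy mean lay under the median of all genes (8.12), and such low values cannot be set against background here.

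Among the 15 largest falls, Vsnl1, a neuronal calcium sensor gene, dropped from 12.09, 11.45 and 12.05 to 8.23, 7.90 and 8.30 (13.2-fold, -3.72 ± 0.20, adjusted p = 0.000128). Iyd, which encodes iodotyrosine deiodinase, fell 9.68-fold, and the organic anion transporter gene Slco2b1 9.78-fold. Lipg, endothelial lipase, fell 7.97-fold, from 11.16, 11.23 and 10.60 to 7.79, 7.97 and 8.24. Several of the others are best known from neurons: the glutamate receptor gene Gria1 (-3.12 ± 0.22), the growth cone gene Gap43 (-3.15 ± 0.29), the Notch ligand-related gene Dner (7.98-fold lower) and the potassium channel gene Kcna2 (-2.87 ± 0.21). The rest were Slc6a7, Fam162b, Prdm8, 1810010H24Rik, Kank3 and Pgm5, with falls of 2.88 to 3.19 on the log2 scale, and Scgb1a1. Scgb1a1, the secretoglobin of airway club cells, read 10.63, 7.20 and 9.77 in healthy and 6.13, 6.56 and 6.18 in MDA-LM2 macro, and its call (-2.91 ± 0.78, adjusted p = 0.0373) was lost when healthy replicate 1 or 3 or any MDA-LM2 macro array was left out (adjusted p 0.0799 to 0.102), and in the fit of all 15 arrays (0.091). The other 34 of these 35 genes were called whichever of the 6 arrays was left out. For 13 of the 15 falls the MDA-LM2 macro mean lay under the median of all genes. For 8 of the 35 the probe set was of a type that can also match related transcripts, and other probe sets of Chl1 (lowest 0.04), Cdca8 (lowest 0.84), Cxcl9 (1.15), Piezo2 (1.78), Flt4 (1.80), Kcna2 (-0.01 at the highest), Slco2b1 (-0.45), Kank3 (-0.51) and Lipg (-0.74) were among those that moved less.

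**Figure D2:**
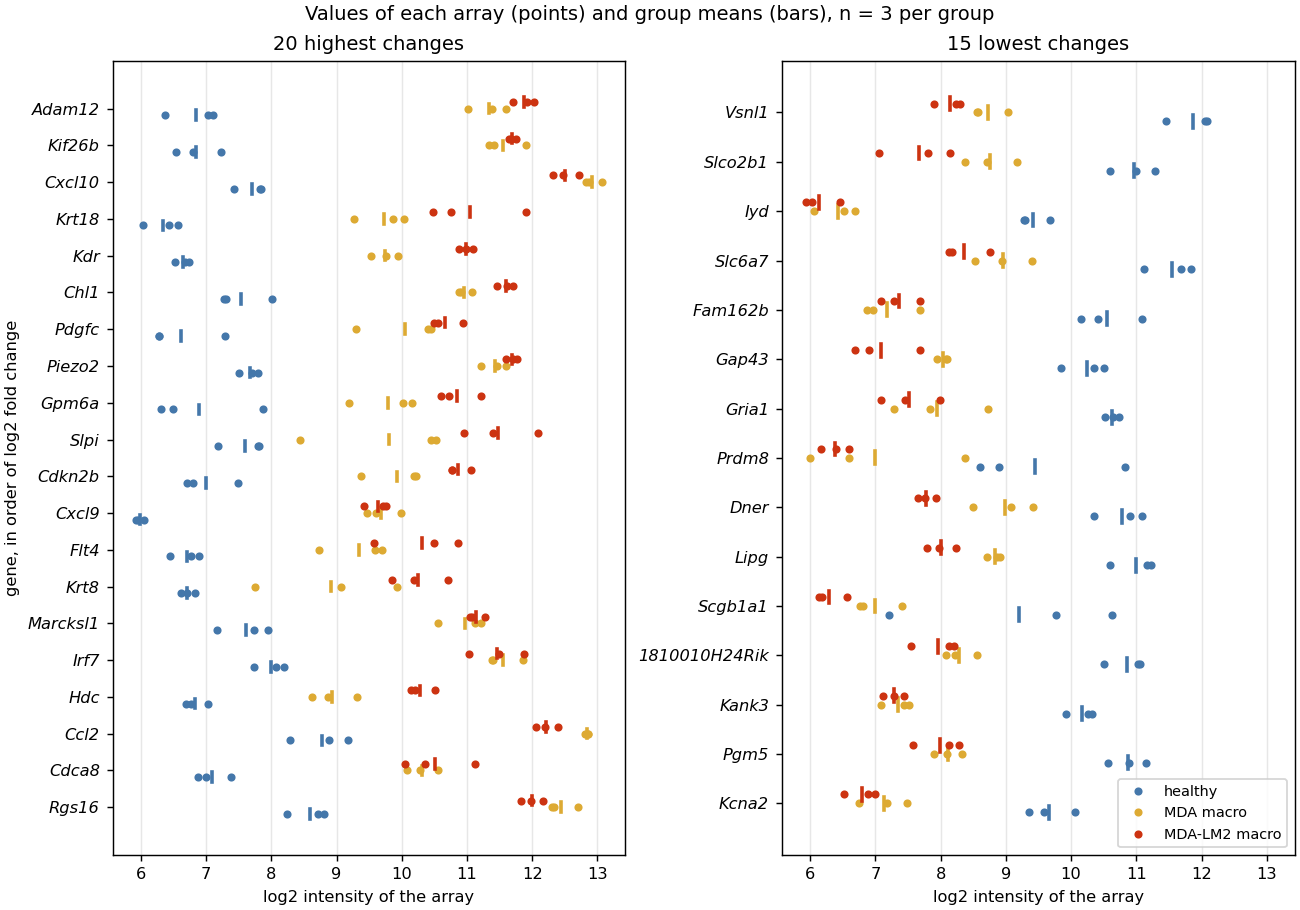
Log2 intensity of each array (points) and group means (bars) for the 20 highest and 15 lowest changes, with healthy in blue, MDA macro in yellow and MDA-LM2 macro in red, n = 3 arrays per group. Healthy and MDA-LM2 macro points do not overlap in any of the 35 genes because the rule of choice required it. The healthy values of Scgb1a1 spread from 7.20 to 10.63.

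Interferon-responsive genes rose together. Of 27 measured type I interferon effectors, which block viral replication or relay interferon signals, 22 were called higher and 0 lower (81.5%, against 22.6% of all genes), with a median change of 1.67. Irf7, the transcription factor that amplifies type I interferon production, rose from 7.73, 8.19 and 8.07 to 11.03, 11.87 and 11.49 (3.47 ± 0.23, adjusted p = 0.000219). Rsad2, which encodes the antiviral protein viperin, read 7.75, 8.46 and 8.85 in healthy and 11.49, 11.99 and 11.59 in MDA-LM2 macro, a 10.1-fold rise. Oas1a, an oligoadenylate synthetase gene, rose 9.55-fold and Zbp1, a sensor of Z-form nucleic acids, 7.67-fold. The 5 that did not pass the test were Parp14 (1.11), Irf9 (0.69), Ifi35 (0.42), Ifi27l2a (0.35) and Ifit2 (0.06). Of 20 interferon-gamma induced genes 14 were called higher and 1 lower, with a median of 0.93. Ifi47 rose 4.36-fold, the guanylate-binding protein gene Gbp3 3.01-fold, the immunity-related GTPase gene Irgm1 2.99-fold and the immunoproteasome subunit gene Psmb8 2.74-fold, and Irf8, an interferon regulatory factor of myeloid cells, fell 1.69-fold.

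Antigen presentation genes were higher in part. In the MHC class I group 5 of 9 members were called higher: the transactivator gene Nlrc5 rose 3.31-fold, the peptide transporter gene Tap1 2.18-fold, H2-K1 1.84-fold and H2-D1 1.68-fold. With the mean of all probe sets per gene 3 of the 9 were called, and Tap1 was not (adjusted p = 0.0779). In the MHC class II group 4 of 6 were called higher. H2-Ab1 read 6.44, 7.14 and 6.54 in healthy and 8.67, 9.31 and 9.24 in MDA-LM2 macro (5.15-fold), Cd74, the invariant chain, rose 3.08-fold, H2-Aa 2.52-fold and H2-Eb1 2.13-fold. The other probe sets of H2-Ab1 rose less, by 1.13 and 1.31 on the log2 scale against 2.36. Class II genes are typical of antigen-presenting leukocytes, whose markers are given below.

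By the probe set that stood for each gene, the CXCR3 ligand genes Cxcl10 and Cxcl9 had the largest chemokine changes. Cxcl10 read 7.42, 7.84 and 7.83 in healthy and 12.32, 12.72 and 12.47 in MDA-LM2 macro (28.0-fold, 4.81 ± 0.17, adjusted p = 5.01e-05). Cxcl9 read 5.96, 5.92 and 6.05 in healthy and 9.42, 9.76 and 9.71 in MDA-LM2 macro (12.6-fold, 3.65 ± 0.13, adjusted p = 5.01e-05). Both groups were far apart in both genes, and the third ligand, Cxcl11, averaged 6.12 and 6.61 and was not called (0.49 ± 0.19, adjusted p = 0.103). Ccl2, a monocyte attractant, rose 10.8-fold, from 9.17, 8.88 and 8.29 to 12.40, 12.20 and 12.05, and its relative Ccl7 6.91-fold, from 7.76, 7.97 and 7.77 to 10.67, 10.67 and 10.53. Among 13 CC and CX3C chemokine genes 5 were called higher, with Cx3cl1 up 6.03-fold and Ccl5 up 5.56-fold, and 1 lower, the eosinophil attractant gene Ccl11 (2.36-fold). Of 6 neutrophil chemokine genes 3 rose. Cxcl2 read 7.15, 5.60 and 5.60 in healthy and 9.81, 9.55 and 9.17 in MDA-LM2 macro (10.5-fold), Cxcl5 rose 2.05-fold and Cxcl1, already at 11.94 to 12.30 in healthy, 1.90-fold. The B cell attractant gene Cxcl13 rose 8.69-fold (3.12 on the log2 scale, and 4.16 by its other probe set) and Cxcl16 1.83-fold.

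The stretches upstream of 4 of these interferon-responsive and chemokine genes and of 2 mitosis genes described further on are printed as examples of windows that hold a short promoter word, and were chosen for holding it. Each is the 250 bases before the RefSeq start (build GRCm38.p6), written 5′ to 3′ toward the gene. Cxcl10 lies at chr5:92348890-92349139 on the minus strand, Rsad2 at chr12:26456453-26456702 on the minus strand, Oas1a at chr5:120907526-120907775 on the minus strand, Cxcl2 at chr5:90903649-90903898 on the plus strand, Mki67 at chr7:135716380-135716629 on the minus strand and Cdca8 at chr4:124936918-124937167 on the minus strand. Capitals mark the interferon-stimulated response element core (GAAA, any 2 bases, GAAA) in the first 3, the NF-kB word (GGGA, any base, TTTCC) in Cxcl2, and CCAAT or the cell cycle homology word TTTGAA in the last 2, each on either strand (a match on the other strand reads as its reverse complement, such as ATTGG for CCAAT).
Cxcl10: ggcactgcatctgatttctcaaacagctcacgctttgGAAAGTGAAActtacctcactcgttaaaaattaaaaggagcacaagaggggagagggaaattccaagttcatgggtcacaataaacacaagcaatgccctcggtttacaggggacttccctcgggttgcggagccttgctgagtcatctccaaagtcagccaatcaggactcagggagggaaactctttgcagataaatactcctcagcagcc
Rsad2: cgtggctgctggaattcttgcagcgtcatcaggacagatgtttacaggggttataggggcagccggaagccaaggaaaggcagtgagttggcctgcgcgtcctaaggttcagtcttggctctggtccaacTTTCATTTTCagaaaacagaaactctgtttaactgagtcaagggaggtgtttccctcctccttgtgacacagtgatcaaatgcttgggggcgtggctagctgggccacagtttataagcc
Oas1a: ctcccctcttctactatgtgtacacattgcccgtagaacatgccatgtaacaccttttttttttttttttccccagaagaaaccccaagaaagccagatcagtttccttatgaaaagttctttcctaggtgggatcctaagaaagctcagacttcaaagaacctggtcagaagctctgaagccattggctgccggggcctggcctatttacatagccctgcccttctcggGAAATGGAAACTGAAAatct
Cxcl2: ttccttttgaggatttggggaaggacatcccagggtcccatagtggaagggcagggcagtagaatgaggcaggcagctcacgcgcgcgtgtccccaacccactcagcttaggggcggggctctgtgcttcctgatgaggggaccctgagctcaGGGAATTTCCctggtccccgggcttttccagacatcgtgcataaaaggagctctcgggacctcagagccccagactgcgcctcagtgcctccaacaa
Mki67: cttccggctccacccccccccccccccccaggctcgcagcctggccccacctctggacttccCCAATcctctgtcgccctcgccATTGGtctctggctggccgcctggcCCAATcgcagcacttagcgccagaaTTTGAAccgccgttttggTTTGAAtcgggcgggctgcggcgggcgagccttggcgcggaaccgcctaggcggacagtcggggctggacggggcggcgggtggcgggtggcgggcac
Cdca8: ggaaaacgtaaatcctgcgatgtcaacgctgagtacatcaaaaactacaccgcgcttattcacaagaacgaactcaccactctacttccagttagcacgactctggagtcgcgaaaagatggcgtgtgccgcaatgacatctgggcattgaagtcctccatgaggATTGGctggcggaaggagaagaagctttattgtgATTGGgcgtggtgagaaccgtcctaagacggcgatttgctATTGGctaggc

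The response element core stood in 8 of the 16 type I interferon effectors called higher that had a RefSeq window (50%) and in 6 of 11 interferon-gamma induced genes (54.5%), and in 1 of 7 chemokine genes called higher, Cxcl10 (14.3%), against 3.04% of 27025 windows of all genes. The windows of Irf7, Cxcl9 and Cx3cl1 held neither this core nor the NF-kB word. That word is a strict form, and near matches were not counted, such as the unmarked gggaaattcc in the Cxcl10 window. Its absence therefore does not show that a window lacks an NF-kB site. In Oas1a 2 matches overlap by 4 bases. The NF-kB word stood in 2 of 7 chemokine genes (28.6%), against 0.337% of all windows. CCAAT stood in 19 of 24 mitosis genes (79.2%), against 34.5%. TTTGAA stood in 8 of these 24 (33.3%), against 16.3% of all windows and 11.9% of those of genes tested. It also stood in 28.6% of the chemokine, 27.3% of the interferon-gamma induced and 18.8% of the type I interferon genes. All shares are over genes called higher with a window: 11 of 14 interferon-gamma induced, 7 of 12 chemokine and 24 of 28 mitosis genes. A match describes the letters of the window and shows no binding.

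Genes of the NF-kB pathway and several inflammatory cytokine genes were higher. Of 13 measured NF-kB subunits and inhibitors, which did not include Nfkb1, 9 were called higher and 0 lower, with a median of 0.63. The count called higher was 6 without any 1 of the MDA-LM2 macro arrays, and 7 without healthy replicate 3 or with the replicate block. The ubiquitin-editing inhibitor gene Tnfaip3 rose 3.70-fold (9.06, 9.61 and 9.23 to 11.60, 10.92 and 11.04), Bcl3 3.12-fold, Nfkbie 2.28-fold and Nfkbiz 2.10-fold. In the IL-1 pathway 5 of 12 were called higher and 1 lower (3 and 1 without MDA-LM2 macro replicate 2): the kinase gene Irak2 rose 2.82-fold and the adaptor gene Myd88 1.84-fold, and Irak3, an inhibitor of the pathway, fell 2.21-fold. The ligand genes themselves were not called, Il1a at 0.19 ± 0.11 and Il1b at 0.49 ± 0.17. Il6 read 8.48, 9.52 and 8.72 in healthy and 11.66, 11.32 and 11.30 in MDA-LM2 macro (5.73-fold, adjusted p = 0.00113). Lif, of the same cytokine family, rose 3.35-fold, and the receptor gene Il6ra fell 4.45-fold. Of 17 genes of the IL-6 family and colony-stimulating factors 5 were called higher and 2 lower (1 lower whichever array was left out). Of 20 acute-phase and complement genes 6 were called higher and 2 lower (4 and 0 without MDA-LM2 macro replicate 1, and 1 lower without any other array). The serum amyloid gene Saa3 rose 8.80-fold, to 12.87, 12.84 and 12.81, the siderophore-binding lipocalin gene Lcn2 4.12-fold and the pentraxin gene Ptx3 3.14-fold.

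Matrix genes moved in both directions. The fibril-forming chains of types I and III are given above and were not called, while 6 of 11 fibrillar collagen genes were called higher and 0 lower: Col11a1 rose 4.06-fold, Col5a3 2.59-fold, Col5a2 2.40-fold and Col24a1 1.75-fold. With the mean of all probe sets Col5a3 was not called (adjusted p = 0.118). Of 26 other collagen genes 10 were called higher and 5 lower (7 and 2 without MDA-LM2 macro replicate 2). Col10a1, a network-forming chain known from growth plate cartilage, read 6.87, 6.87 and 6.89 in healthy and 9.60, 9.08 and 9.04 in MDA-LM2 macro (5.14-fold). Col12a1, a fibril-associated chain, rose 2.61-fold and the basement membrane chain gene Col18a1 2.37-fold, and the transmembrane collagen genes Col17a1 and Col13a1 fell 4.45-fold and 2.74-fold. Among 25 matrix glycoproteins 8 were called higher and 6 lower. Cthrc1, a secreted glycoprotein of activated fibroblasts, rose 9.97-fold, from 7.66, 7.05 and 7.53 to 10.44, 11.17 and 10.59. Tnc, which encodes tenascin C, rose 5.47-fold, from 10.60, 10.31 and 9.72 to 12.52, 12.86 and 12.60, the matricellular gene Ccn4 4.81-fold and the thrombospondin gene Thbs2 3.58-fold. Fn1, fibronectin, rose 1.56-fold (12.97, 12.90 and 12.80 to 13.59, 13.44 and 13.57), and its other probe set showed 2.04 on the log2 scale against 0.64. Vitronectin (Vtn) fell 6.43-fold, tenascin X (Tnxb) 4.72-fold, from 12.66, 12.68 and 12.71 to 9.92, 10.78 and 10.65, and spondin 2 (Spon2) 2.68-fold.

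Small leucine-rich proteoglycans, which bind collagen fibrils and set their diameter, fell. Of 10 measured genes 7 were called lower and 0 higher (70.0%, against 8.98% of all genes lower), with a median of -0.77. Omd, osteomodulin, read 9.68, 9.63 and 9.69 in healthy and 7.31, 7.54 and 7.36 in MDA-LM2 macro (4.79-fold lower, adjusted p = 0.000113). Asporin (Aspn) fell 3.11-fold and osteoglycin (Ogn) 2.24-fold, and decorin (Dcn), read at 13.94, 13.95 and 14.00 in healthy, fell by 0.59 on the log2 scale. Of 21 crosslinking and elastic fiber genes 9 were called higher and 4 lower. The collagen-modifying genes P4ha3 and Plod2 rose 4.41-fold and 2.39-fold, Fbn2, a fibrillin of developing tissue, 3.10-fold, Loxl3 2.19-fold and the lysyl oxidase gene Lox 1.92-fold. The elastic fiber genes Efemp1, Fbln5 and Ltbp4 fell 2.40-fold, 2.24-fold and 2.18-fold.

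Of 27 metalloproteinase and inhibitor genes 10 were called higher and 5 lower. After Adam12 the largest rises were those of Adamts12 (6.81-fold), Adamts4 (2.70 ± 0.17), an aggrecanase, and the stromelysin gene Mmp10 (4.76-fold). Adam33 fell 5.88-fold, Adamts5 2.94-fold and Mmp3 2.47-fold. Another probe set of Adamts12 moved the other way (-0.53). Plaur, the urokinase receptor gene, rose 6.31-fold and the plasminogen activator gene Plat 1.81-fold, and Serpinb2, the plasminogen activator inhibitor gene, read 5.65, 5.47 and 5.48 in healthy and 6.72, 6.19 and 5.94 in MDA-LM2 macro. Its call (0.75 ± 0.20, adjusted p = 0.0374) was lost when any healthy array or MDA-LM2 macro replicate 1 or 2 was left out (adjusted p 0.0572 to 0.0923), and it was not called in the fit of all 15 arrays (0.0689), after quantile normalization (0.0528) or after median centring (0.0526).

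Contractile genes were less uniform. Of 22 measured, 7 were called higher and 3 lower, and 5 and 1 without MDA-LM2 macro replicate 2, 4 and 1 without MDA-LM2 macro replicate 3 or 8 and 1 without healthy replicate 3. Actn1, an actin crosslinker, rose 2.84-fold with little spread (10.42, 10.44 and 10.35 to 11.92, 11.89 and 11.91), and Tagln, transgelin, 1.76-fold. Acta2, which encodes smooth muscle actin and is used as a marker of myofibroblasts, read 12.34, 12.33 and 12.82 in healthy and 13.19, 13.28 and 13.26 in MDA-LM2 macro (1.67-fold, 0.74 ± 0.15, adjusted p = 0.0151). Without MDA-LM2 macro replicate 2 or 3 its adjusted p was 0.0502 to 0.0559, its other probe sets showed changes down to -0.45, and with the mean of its probe sets it was not called (adjusted p = 0.413).

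Cell division genes rose together. Of 29 mitosis genes 28 were called higher and 0 lower (96.6%), with a median of 1.59. Ttk was not called (-0.23 ± 0.18). Mki67, the proliferation marker, read 7.70, 7.06 and 7.84 in healthy and 10.61, 10.52 and 10.66 in MDA-LM2 macro (8.37-fold, adjusted p = 0.000223). Cdca8, a subunit of the chromosomal passenger complex, rose 10.8-fold, the cyclin gene Ccna2 6.04-fold, from 7.65, 7.56 and 7.57 to 9.94, 10.36 and 10.27, and topoisomerase II alpha (Top2a) 5.97-fold. Of 26 DNA replication genes 13 were called higher and 0 lower. Rrm2, a ribonucleotide reductase subunit, rose 6.40-fold, the helicase subunit genes Mcm5 and Mcm2 6.01-fold and 3.34-fold, and Uhrf1, which maintains DNA methylation, 4.31-fold. Inhibitors of cyclin-dependent kinases moved in both directions: Cdkn2b, with healthy arrays at 6.70, 6.80 and 7.48 and MDA-LM2 macro arrays at 10.77, 11.06 and 10.77, and Cdkn1a (2.09-fold) rose, and Cdkn1c fell 4.36-fold. The cyclin gene Ccnd2 rose 2.80-fold. Without MDA-LM2 macro replicate 1, 3 of the 10 genes of that list were called higher and 2 lower, against 5 and 3 with all arrays.

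**Figure D3:**
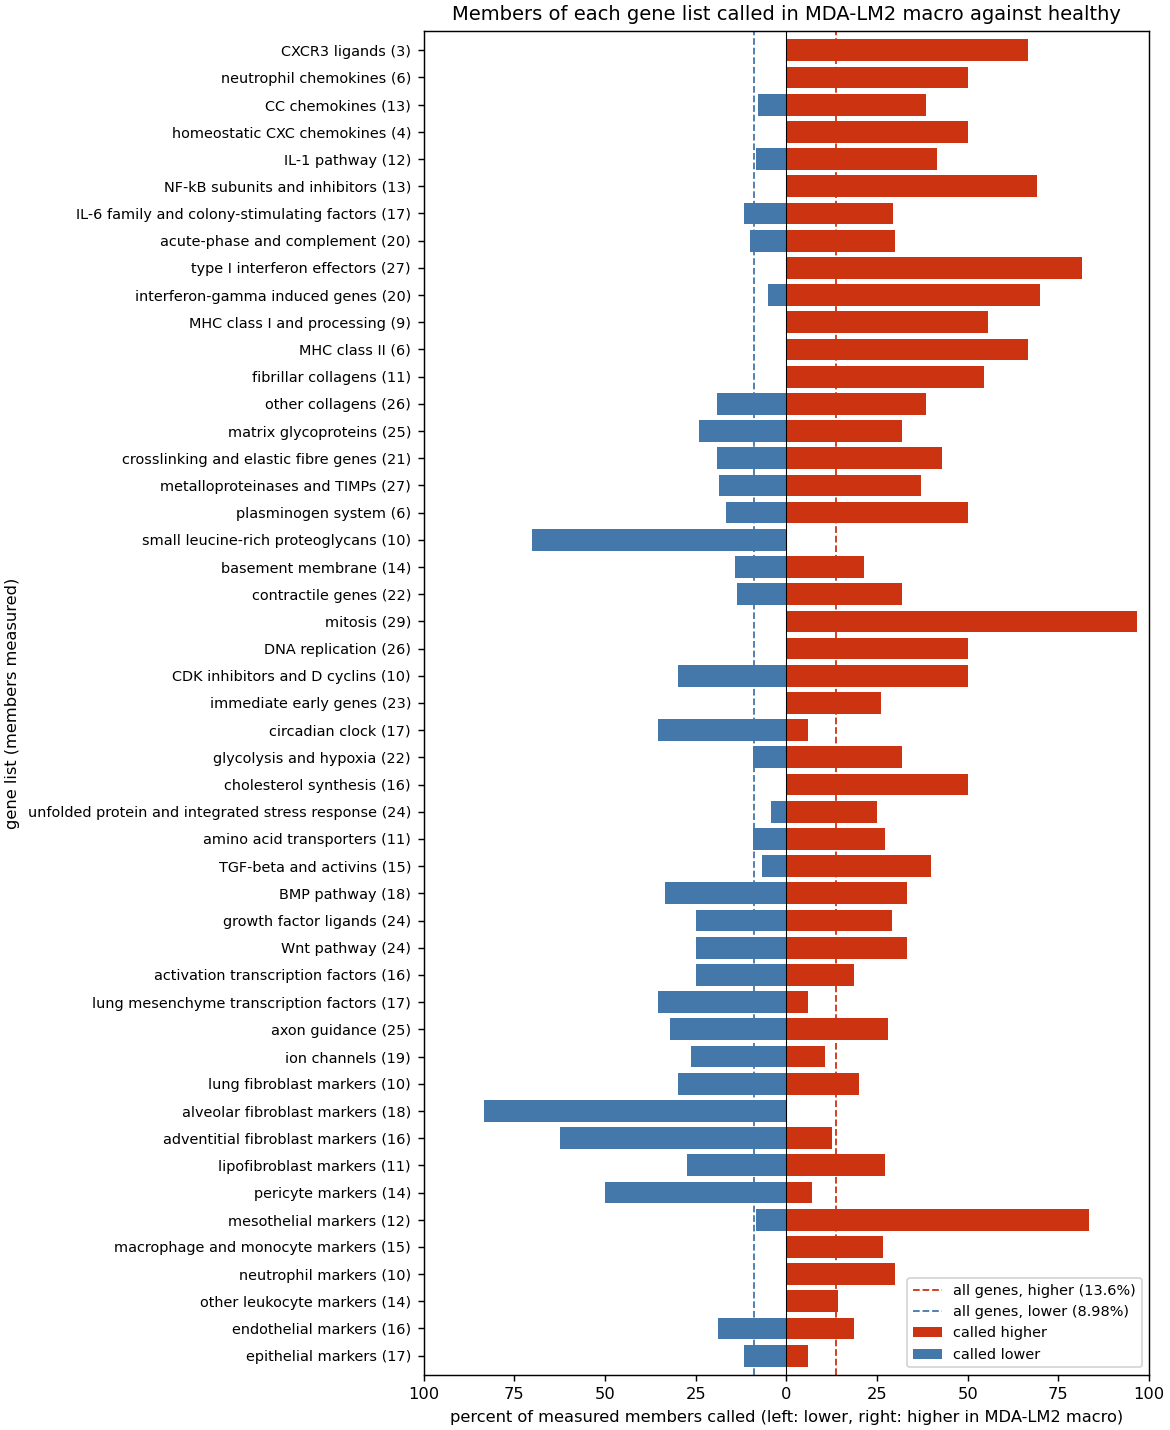
Percent of the measured members of each gene list called higher (right, red) or lower (left, blue) in MDA-LM2 macro, with the number measured in parentheses and dashed lines at the shares of all 18194 genes (13.6% higher, 8.98% lower). Mitosis genes (28 of 29), mesothelial markers (10 of 12) and type I interferon effectors (22 of 27) reach furthest to the right, and alveolar fibroblast markers (15 of 18) and small leucine-rich proteoglycans (7 of 10) furthest to the left.

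Genes of glucose and sterol metabolism were partly higher. Of 22 glycolysis and hypoxia genes 7 were called higher and 2 lower (5 and 1 without MDA-LM2 macro replicate 2, and 1 lower without MDA-LM2 macro replicate 3 or healthy replicate 2 or 3): the oxygen sensor gene Egln3 rose 3.90-fold, the lactate exporter gene Slc16a3 3.36-fold, hexokinase 2 (Hk2) 3.01-fold and lactate dehydrogenase A (Ldha) 2.02-fold, and Ndrg1 fell 1.78-fold. Of 16 cholesterol synthesis genes 8 were called higher and 0 lower, with a median of 0.56. Cyp51, lanosterol demethylase, read 9.34, 9.41 and 8.89 in healthy and 11.44, 11.61 and 11.16 in MDA-LM2 macro (4.58-fold). Its other probe sets showed 0.94 and 0.62 on the log2 scale against 2.19. The squalene synthase gene Fdft1 and the farnesyl diphosphate synthase gene Fdps both rose 2.75-fold and squalene epoxidase (Sqle) 2.44-fold.

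Growth factor genes split between directions. Tgfb1, which encodes the main fibrogenic cytokine of the TGF-beta family, read 8.78, 8.32 and 8.69 in healthy and 10.82, 10.86 and 10.96 in MDA-LM2 macro (4.87-fold, adjusted p = 0.000188). Its other, dimmer probe set showed 0.49 on the log2 scale against 2.29. The activin subunit genes Inhbb and Inhba rose 2.30-fold and 2.24-fold, the receptor gene Tgfbr1 1.79-fold, and the co-receptor gene Tgfbr3 fell 1.99-fold. Of 15 genes in that list 6 were called higher and 1 lower (10 and 1 with the mean of all probe sets). Of 24 growth factor ligand genes 7 were called higher and 6 lower. Besides Pdgfc, the EGF receptor ligand gene Ereg rose 7.52-fold and midkine (Mdk) 2.79-fold. Igf2 fell 4.40-fold, from 10.82, 11.08 and 11.39 to 8.91, 9.18 and 8.78, the angiopoietin gene Angpt1 3.14-fold and Fgf7, a growth factor for epithelium, 3.14-fold. In the Wnt pathway 8 of 24 were called higher and 6 lower. Ror1, a receptor of noncanonical Wnt ligands, rose 3.12-fold and the Wnt amplifier gene Rspo1 3.04-fold, and Wnt2b fell 3.63-fold and the secreted antagonist gene Sfrp4 3.48-fold.

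Transcription factors of activation and of lung mesenchyme showed a few large changes. Runx1 rose 10.2-fold, from 8.24, 8.73 and 9.51 to 12.30, 12.13 and 12.11 (adjusted p = 0.000558). Twist1 rose 2.24-fold and Sox4 2.15-fold, and Twist2 and Zeb1 fell 2.24-fold and 1.94-fold. In the list of lung mesenchyme factors 1 of 17 was called higher and 6 lower. Hoxb5 fell 2.21-fold and Tcf21, a factor of lung mesenchyme and lipofibroblasts, 1.86-fold. Without healthy replicate 1 or 2 that list had 4 called lower and 0 higher, and without MDA-LM2 macro replicate 1 or 2 it had 3 called lower and 0 higher.

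Markers of alveolar and adventitial fibroblasts were mostly lower. In bulk samples fewer cells of a type and less RNA per cell cannot be told apart. Of 18 alveolar fibroblast markers 15 were called lower and 0 higher (83.3%), with a median of -0.86, and the summed linear intensity of the list was 81678 to 94349 in healthy and 45223 to 52820 in MDA-LM2 macro. The amino acid transporter gene Slc7a10 fell 7.28-fold, from 10.06, 10.28 and 9.20 to 7.05, 6.73 and 7.18. The sodium channel gene Scn3a fell 5.88-fold and the FGF receptor gene Fgfr4 3.64-fold. Of 16 adventitial fibroblast markers 10 were called lower and 2 higher, with sums of 96010 to 107329 and 59925 to 66925. Igfbp6, which binds IGF2, fell 4.65-fold, from 13.09, 12.95 and 13.08 to 10.61, 11.16 and 10.68, and the lectin gene Clec3b 4.54-fold, while Fap, fibroblast activation protein, rose 3.79-fold, from 8.83, 8.14 and 8.66 to 10.53, 10.32 and 10.55, and Col15a1 1.96-fold. The list of general lung fibroblast markers had sums of 82676 to 87297 and 83245 to 86906, which overlap. In it Thy1, a surface glycoprotein, rose 3.64-fold. Of 10 such markers 2 were called higher and 3 lower, and 1 and 1 without MDA-LM2 macro replicate 2, 1 and 2 without MDA-LM2 macro replicate 1 or 3 or healthy replicate 3, and 1 and 3 without healthy replicate 2.

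Lipofibroblast markers went both ways, with 3 of 11 higher and 3 lower. Fabp4 rose 2.76-fold and the lipoprotein lipase gene Lpl 2.58-fold, from 11.40, 11.29 and 11.71 to 12.84, 12.89 and 12.78, and the fatty acid transporter gene Cd36 fell 2.17-fold. The summed list was 9051 to 9360 in healthy and 13551 to 15086 in MDA-LM2 macro, and without Lpl, its brightest member, the sums overlapped (5845 to 6848 and 5942 to 8048). Of 14 pericyte markers 7 were called lower and 1 higher (5 and 0 without MDA-LM2 macro replicate 1 or 3), with sums of 22656 to 32728 and 16724 to 20891. Cox4i2 fell 6.92-fold, from 11.57, 10.73 and 11.16 to 8.11, 8.27 and 8.71, Higd1b 4.65-fold and Ebf1 3.25-fold. Rgs5, another pericyte marker, averaged 10.56 and 11.21 and was not called (0.65 ± 0.19, adjusted p = 0.0513).

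Mesothelial markers, genes of the cells that line the lung surface, were higher, although no mesothelial gate was set. Of 12 measured, 10 were called higher and 1 lower (91.7%), with a median of 2.30. Their summed linear intensity was 2559 to 3222 in healthy and 9736 to 12634 in MDA-LM2 macro. Besides Krt18 and Krt8, the glycoprotein gene Gpm6a rose 15.6-fold, from 6.31, 6.49 and 7.87 to 11.22, 10.73 and 10.60, and Wt1, a transcription factor of mesothelium, 9.83-fold, from 6.60, 6.68 and 6.63 to 9.95, 9.68 and 10.17. The defining markers Lrrn4, mesothelin (Msln) and uroplakin 3b (Upk3b) rose 5.45-fold, 5.18-fold and 4.69-fold, Calb2 was not called (0.32 ± 0.12), and Nkain4 fell 1.89-fold. The part of such cells in the other results was not tested.

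The cells removed by the sort left low values. Ptprc, which encodes CD45, averaged 6.36 in healthy and 6.51 in MDA-LM2 macro, Itgam (CD11b) 6.26 and 5.68, Pecam1 (CD31) 7.61 and 7.22 and Epcam 6.61 and 6.61, none of them called. Of 15 macrophage and monocyte markers 4 were called higher and 0 lower (26.7% called, beside 22.6% of all genes called and 13.6% called higher). Their sum was 2148 to 2951 in healthy and 4508 to 5936 in MDA-LM2 macro. Cd14 rose 5.48-fold, from 7.99, 7.69 and 7.30 to 10.59, 9.98 and 9.76, the Fc receptor gene Fcgr3 4.36-fold and Cd68 2.79-fold, while Adgre1 (0.20 ± 0.13), Csf1r (0.67 ± 0.54) and C1qa (0.49 ± 0.35) were not called. Of 10 neutrophil markers 3 were called higher (30.0% called, beside the same shares), with sums of 943 to 1010 and 1139 to 2156. Mmp8 rose 2.44-fold and Cxcr2 1.70-fold, S100a8 (0.92 ± 0.36) and S100a9 (0.86 ± 0.44) were not called, and 6 were called in the fit of all 15 arrays. Among 14 other leukocyte markers 2 were called higher (14.3%, beside 13.6% of all genes): Cd3e, a T cell receptor subunit, read 5.77, 6.54 and 6.08 in healthy and 8.33, 8.73 and 8.21 in MDA-LM2 macro (4.90-fold), and Cd8a rose 1.74-fold (not called without MDA-LM2 macro replicate 1 or 2, adjusted p 0.0668 to 0.0762). The other probe sets of Cd8a changed by 0.1 to 0.3 on the log2 scale and were not called. Cd3g, the partner subunit of Cd3e, was not called (0.16 ± 0.11). NSG mice lack mature T cells, as given above, and the source of the Cd3e and Cd8a values was not tested. After quantile normalization 2 of the other leukocyte markers were called higher and 2 lower, and their sums were 1358 to 1483 and 1653 to 2006. The macrophage, neutrophil and other leukocyte sums all stood above healthy in every MDA-LM2 macro array, and their part in the chemokine, MHC class II and interferon results was not tested.

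Endothelial genes did not move as a group, with 3 of 16 called higher and 3 lower (2 and 1 without MDA-LM2 macro replicate 3) and sums of 6148 to 8194 and 6410 to 7078. Kdr rose as given above and the sialomucin gene Emcn rose 1.96-fold, from 6.48, 6.49 and 6.69 to 7.66, 7.17 and 7.74. Tek, the angiopoietin receptor gene, fell 5.68-fold, from 10.21, 9.73 and 10.46 to 7.35, 7.59 and 7.94. Cldn5 (0.02 ± 0.16), Vwf (-0.26 ± 0.14), Lyve1 (0.29 ± 0.18) and Prox1 (0.57 ± 0.19) were not called. Of 17 epithelial markers 1 was called higher and 2 lower (17.6% called, beside 22.6% of all genes). The total called was 0 without MDA-LM2 macro replicate 2, 1 without MDA-LM2 macro replicate 1 or 3 or healthy replicate 1 and 2 without healthy replicate 2 or 3. Cdh1 stood at 0.11 ± 0.13 and Sftpc at -0.11 ± 0.45, and the sums of the list were 2919 to 5325 and 2884 to 3180.

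**Figure D4:**
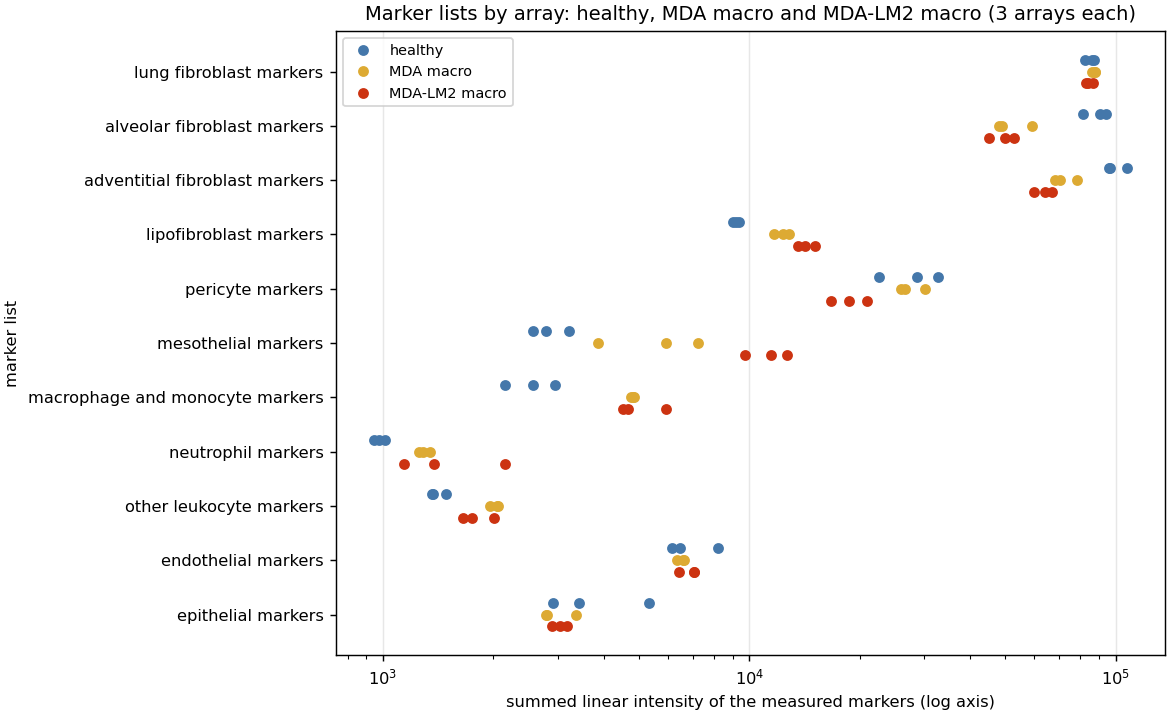
Summed linear intensity of the measured markers of each cell type list (horizontal log axis), 1 point per array, with healthy in blue, MDA macro in yellow and MDA-LM2 macro in red. The mesothelial sum is 2559 to 3222 in healthy, 3872 to 7245 in MDA macro and 9736 to 12634 in MDA-LM2 macro, and the alveolar and adventitial fibroblast sums of both macro groups lie below those of healthy.

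MDA-LM2 macro was also set directly against MDA macro, the week 3 lungs with the parental line, to ask whether the fibroblasts of the more metastatic line differed. Of 18194 genes 2 were called (0.011%), both lower in MDA-LM2 macro, and 1864 had an unadjusted p under 0.05. Tmie, known for its role in the transduction channel of inner ear hair cells, read 7.73, 7.41 and 7.77 in MDA-LM2 macro and 9.56, 9.57 and 9.71 in MDA macro (-1.97 ± 0.13, adjusted p = 0.0154). Sema5b, a semaphorin gene, read 7.95, 7.92 and 8.07 against 9.22, 9.28 and 9.26 (-1.27 ± 0.10, adjusted p = 0.0282). Neither differed between MDA-LM2 macro and healthy by the test (-0.22 ± 0.30 and 0.09 ± 0.35). No gene was called when any of the 6 arrays was left out, and 64 were called in the fit of all 15 arrays, 42 of them higher.

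None of the 35 genes with the largest changes from healthy was called between the lines, nor any of the 1349 genes changed at least 2-fold from healthy. This does not show that they were alike: the 95% interval of the difference had a median half-width of 0.43 over the 1349 genes, and it lay within 1 log2 unit of 0 on both sides for 988 of them. Cxcl10 read 0.41 lower in MDA-LM2 macro than in MDA macro on the log2 scale (adjusted p = 0.384) and Cxcl9 0.06 lower (adjusted p = 0.942). Kdr was 1.24 higher in MDA-LM2 macro (adjusted p = 0.0642), Hdc, histidine decarboxylase, 1.35 higher (adjusted p = 0.0848) and Krt18 1.32 higher (adjusted p = 0.289). The 35 genes were chosen by their values in these same MDA-LM2 macro arrays. That choice favors line differences in the direction of the change from healthy. Of the 20 highest 15 were higher than in MDA macro, and of the 15 lowest 14 were lower, so these differences do not show a stronger response to MDA-LM2. Over the 12 mesothelial markers the median difference between the lines was 0.96, beside 0.03 over all genes, with 0 of 12 called, and the summed intensities of MDA macro (3872 to 7245) and MDA-LM2 macro (9736 to 12634) did not overlap. The pericyte sums did not overlap either, with 26001 to 30230 in MDA macro and 16724 to 20891 in MDA-LM2 macro, and 0 of 14 markers were called. Nor did the adventitial fibroblast sums (68402 to 78491 in MDA macro and 59925 to 66925 in MDA-LM2 macro, 0 of 16 markers called). The same held for the lipofibroblast sums (11711 to 12815 and 13551 to 15086, 0 of 11 markers called). The sums of the other marker lists overlapped between the lines. Between these 2 groups of arrays 16.1% of all genes did not overlap. Sums without the brightest member of a list were not computed for MDA macro.

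**Figure D5:**
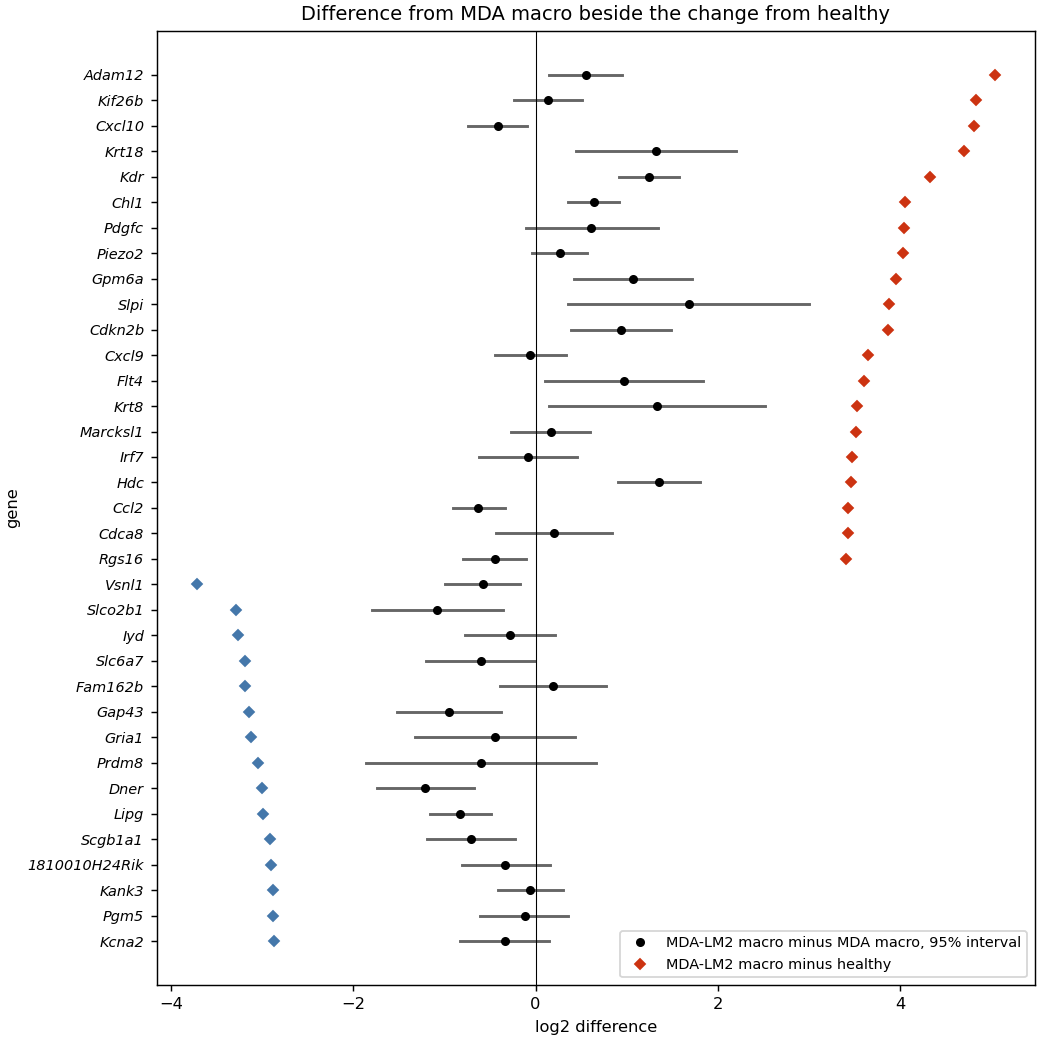
Log2 difference of MDA-LM2 macro minus MDA macro with its 95% interval (black points and grey lines) beside the change from healthy (red and blue diamonds) for the 35 genes with the largest changes from healthy. Differences between the lines stay between -1.21 for Dner and 1.68 for Slpi, with 0 of the 35 genes called. The genes were chosen by the same MDA-LM2 macro arrays, which favors differences in the direction of the change from healthy.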

How the data were processed

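Fibroblast RNA was hybridised to Affymetrix mouse genome arrays. Per the study's methods the authors normalised the arrays with RMA in Chipster, and the deposited table holds linear intensity values, which were taken to log2. How the RMA values returned to the linear scale, and the build behind the probe annotation, are not given in the sources used here. Of 45100 probe sets, 34957 carried 1 gene symbol in the platform annotation, 932 several and 9211 none. Each gene was read from its brightest probe set on average across the 15 arrays, which left 18194 genes with no filter on low values. The table holds no detection calls, so low values cannot be set against background, and RMA narrows the folds of dim genes. The number of arrays limits the precision.

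limma 3.58.1 (R 4.3.3; lmFit and eBayes) was fitted to the 3 MDA-LM2 macro and 3 healthy arrays, and to the 3 MDA-LM2 macro and 3 MDA macro arrays, with Benjamini-Hochberg adjustment over all genes. The code was tested on simulated data. Replicates came from 1 to 3 mice each, and p-values measure the spread between them. Exact permutation tests (SciPy 1.17.1) were run on array measures. Alternatives were each array left out, the replicate number as a block, all 15 arrays in the fit, quantile normalization, median centring, the mean of all probe sets per gene, all probe sets tested, brighter genes alone and an intensity trend.

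A rule picked genes to be named, and the text does not print all of them. It took the 20 highest and 15 lowest changes among called genes whose groups do not overlap. The higher group had to reach the median of all genes (8.12). The same was done in MDA-LM2 macro against MDA macro. A fixed set of 10 genes was added. Of each of 49 lists (801 of 856 entries measured) it took up to 4 highest and 3 lowest called members and the marker genes. The basement membrane list (3 of 14 called higher and 2 lower) is not described. Of the genes picked, 44 lost their call in a fit that left out an array. Only Scgb1a1, Pdgfra, Acta2, Serpinb2 and Cd8a of these are named, so the named genes lean toward calls that held. Some genes not printed kept their call, such as Lama5, Agrn, Bmp1 and Gdf10. Parp14, Irf9, Ifi35, Ifi27l2a, Ifit2, Cxcl11, Il1a, Il1b and Ttk were named after their values were seen. The members and lists were chosen with earlier results of these data known.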

Additional observations from a re-analysis of the deposited data

Results flagged for a closer look

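Tmie and Sema5b are given here because they differed between the lungs of the 2 tumor lines in the direct test. Tmie was lower in MDA-LM2 macro than in MDA macro by -1.97 ± 0.13 on the log2 scale (adjusted p = 0.0154) in 3 of 3 arrays, and its healthy arrays read 7.40, 8.59 and 7.59. Its value comes from a probe set of a type that can match related transcripts, and its other probe sets showed up to 0.68 in MDA-LM2 macro against healthy. Sema5b was lower by -1.27 ± 0.10 (adjusted p = 0.0282) in 3 of 3 arrays, with healthy arrays at 8.65, 7.09 and 7.95. Its other probe set showed -0.52 in MDA-LM2 macro against healthy. For Tmie and Sema5b the other probe sets are given against healthy alone and not against MDA macro. Both calls were lost in each fit that left out an array, where the lowest adjusted p was 0.0558 to 0.17.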

How the results depend on the processing

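In MDA-LM2 macro against healthy, the count of called genes was 2433 to 3317 when an array was left out, 2724 without MDA-LM2 macro replicate 1 and 2433 without MDA-LM2 macro replicate 2, and the count of genes changed at least 2-fold was 1200 to 1375. The other alternatives gave 3100 to 4623 and 1156 to 1383, apart from the test of all probe sets, where more features entered (7553 and 2509 probe sets). In all 2089 genes, and 1180 of the 1349 with a 2-fold change, were called in each of the 6 fits that left out an array. In MDA-LM2 macro against MDA macro the count was 0 in each fit that left out an array, 64 with all 15 arrays, 21 with the mean of all probe sets, 22 with brighter genes alone, 1 with an intensity trend and 1 with all probe sets; the causes were not tested. Same-numbered arrays did not deviate together (correlations of -0.05 to 0.04), so the replicate numbers were not taken as pairs; with the replicate number as a block 3100 genes were called against healthy and 0 against MDA macro. The rule, marker genes aside, picked 259 genes for their changes, for the sort or for the comparison of the lines, and not all are printed here. Of the 259 genes 256 were called against healthy, and 212 of them were called also in each fit that left out an array. Tmie and Sema5b, not called against healthy, changed sign: Tmie ranged from -0.45 to 0.14 over the fits that left out an array, positive without healthy replicate 2, and was 0.27 with the mean of all probe sets, and Sema5b ranged from -0.31 (without healthy replicate 2) to 0.47 and was -0.22.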

Other observations

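Genes of axon guidance, which also steer vessels and mesenchyme, split in direction. Of 25 measured 7 were called higher and 8 lower. Unc5b, a netrin receptor gene, read 8.95, 8.95 and 9.81 in healthy and 12.20, 11.92 and 12.02 in MDA-LM2 macro (7.02-fold), while Ntn1, which encodes the ligand netrin 1, fell 3.19-fold, from 11.95, 11.86 and 12.19 to 9.94, 10.19 and 10.84. Class 3 semaphorin genes went both ways, with Sema3a up 3.27-fold and Sema3f up 2.59-fold, and Sema3b and Sema3c down 2.70-fold and 2.57-fold. Of 19 ion channel genes 2 were called higher and 5 lower (36.8% called, beside 22.6% of all genes called and 13.6% called higher). Next to Piezo2, its relative Piezo1 rose 1.77-fold, and Kcnj8 and Scn7a fell 2.09-fold and 2.04-fold. In the BMP pathway 6 of 18 genes were called higher and 6 lower: the antagonist gene Grem1 rose 3.18-fold and the intracellular inhibitor gene Smad6 2.51-fold, and Chrdl1, another antagonist, fell 4.63-fold, from 10.22, 10.19 and 9.98 to 7.23, 8.74 and 7.79, and Bmp2 2.36-fold.

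Immediate early genes, which respond within minutes to growth signals or to tissue handling, were called higher in 6 of 23 cases and lower in 0 (26.1%, beside 22.6% of all genes called; 7 and 3 with an intensity trend). The nuclear receptor genes Nr4a2 and Nr4a3 rose 4.86-fold and 3.89-fold, Ier3 3.73-fold and Myc 3.36-fold, from 9.66, 9.10 and 9.80 to 11.36, 11.26 and 11.17. Of 17 circadian clock genes 1 was called higher, Bhlhe40 (2.60-fold), and 6 lower, among them Npas2 (3.07-fold, from 10.46, 10.66 and 10.62 to 8.62, 8.98 and 9.27) and Cry1 (2.05-fold). The share of clock genes called was 41.2%, beside 22.6% of all genes. Among 24 genes of the unfolded protein and integrated stress response 6 were called higher and 1 lower (29.2% called, beside 22.6% of all genes). The counts were 1 and 1 without MDA-LM2 macro replicate 2, and 3 and 1 without healthy replicate 1 or 2 or MDA-LM2 macro replicate 1. Chac1 rose 1.63-fold and Atf5 fell 2.04-fold. Of 11 amino acid transporter genes 3 were called higher and 1 lower (6 and 2 in the fit of all 15 arrays, 5 and 1 without healthy replicate 1, 3 and 2 without healthy replicate 2 or 3), with Slc38a1 up 4.82-fold and Slc1a5 down 2.10-fold. The share of these transporter genes called in the main fit was 36.4%, beside 22.6% of all genes.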
